A study of Homo sapiens with 4 samples.

Results

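The mitochondrial ribosomal protein genes were taken as all rows of the deposited expression tables whose symbol starts with MRPL or MRPS followed by a digit. There were 78 such genes among the 13092 genes of the tables, 49 with an MRPL and 29 with an MRPS symbol, and all 78 had reads in both libraries. RNA was measured in RKO, an established human colon carcinoma cell line, in 1 library from cells labelled HADH-S overexpression and 1 library from control cells labelled WT (CTL). HADH is known as an enzyme of mitochondrial fatty acid breakdown, which oxidises medium- and short-chain hydroxyacyl-CoA, and HADH-S is the isoform that the series places in the nucleus. The vector, its promoter, the number of clones and what the control cells carried were not stated in the labels. The chromatin immunoprecipitation sample of the series and its input are not analysed here.

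Mitochondria keep their own ribosome, which translates the few messenger RNAs encoded by mitochondrial DNA into core subunits of the oxidative phosphorylation complexes. Its ribosomal RNAs come from mitochondrial DNA, while all of its proteins are encoded in the nucleus, made on cytosolic ribosomes and imported. Some of these proteins descend from bacterial ribosomal proteins and others are found only in mitochondrial ribosomes. The small subunit binds the messenger RNA and decodes it, and the large subunit joins the amino acids and releases the chain next to the inner membrane.

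Levels are in RPKM, reads per kilobase of the transcript named in the row, scaled to the size of the library. The HADH-S library held 6963608 reads and the control library 6773421. Members held 70 to 1931 reads each with HADH-S and 64 to 1797 in the control, and all 78 passed the minimum mean of 1 RPKM used below. The HADH gene had 54.4 RPKM with HADH-S overexpression, against 26.5 RPKM in the control cells, a ratio of 2.05 with a 95% counting interval of 1.79 to 2.35. Of 4 epithelial markers 3 were listed and of 4 colonocyte markers 2. The epithelial markers EPCAM (9.57 RPKM with HADH-S, 8.20 in the control) and KRT18 (93.8 with HADH-S and 91.7 in control) and the colonocyte marker CDX2 (4.37 with HADH-S and 3.597 in control) were detected, with KRT8 at 2.81 RPKM with HADH-S and 2.54 in control and CA2 at 14.3 with HADH-S and 11.1 in control, while CDH1, KRT20 and VIL1 were in neither table and were not evaluated. Of 4 endothelial and 4 leukocyte markers 0 were listed in either table, and of 4 fibroblast markers only COL1A1 was, with 1 read with HADH-S and 0 in the control. The unlisted markers of these cell types were not evaluated either. Each condition has a single library, so the conditions cannot be tested against each other, and "higher" and "lower" describe these 2 libraries. Exact conditional (Clopper-Pearson) intervals are given for ratios, and they cover counting error only.

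The genes of the mitochondrial ribosome were moderately abundant in both libraries, and they covered a wide range of levels. The median member had 42.3 RPKM in each library, compared with 12.4 RPKM with HADH-S and 12.2 in control for the median of the 10331 genes with a mean of at least 1 RPKM. Together the 78 genes took 0.563% of the reads with HADH-S and 0.544% in control cells. The 79 genes of the cytosolic ribosome were far more abundant, with medians of 1149 RPKM with HADH-S and 1102 in control cells, 27.2 times the mitochondrial median with HADH-S and 26.0 times in control.

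**Figure D1:**
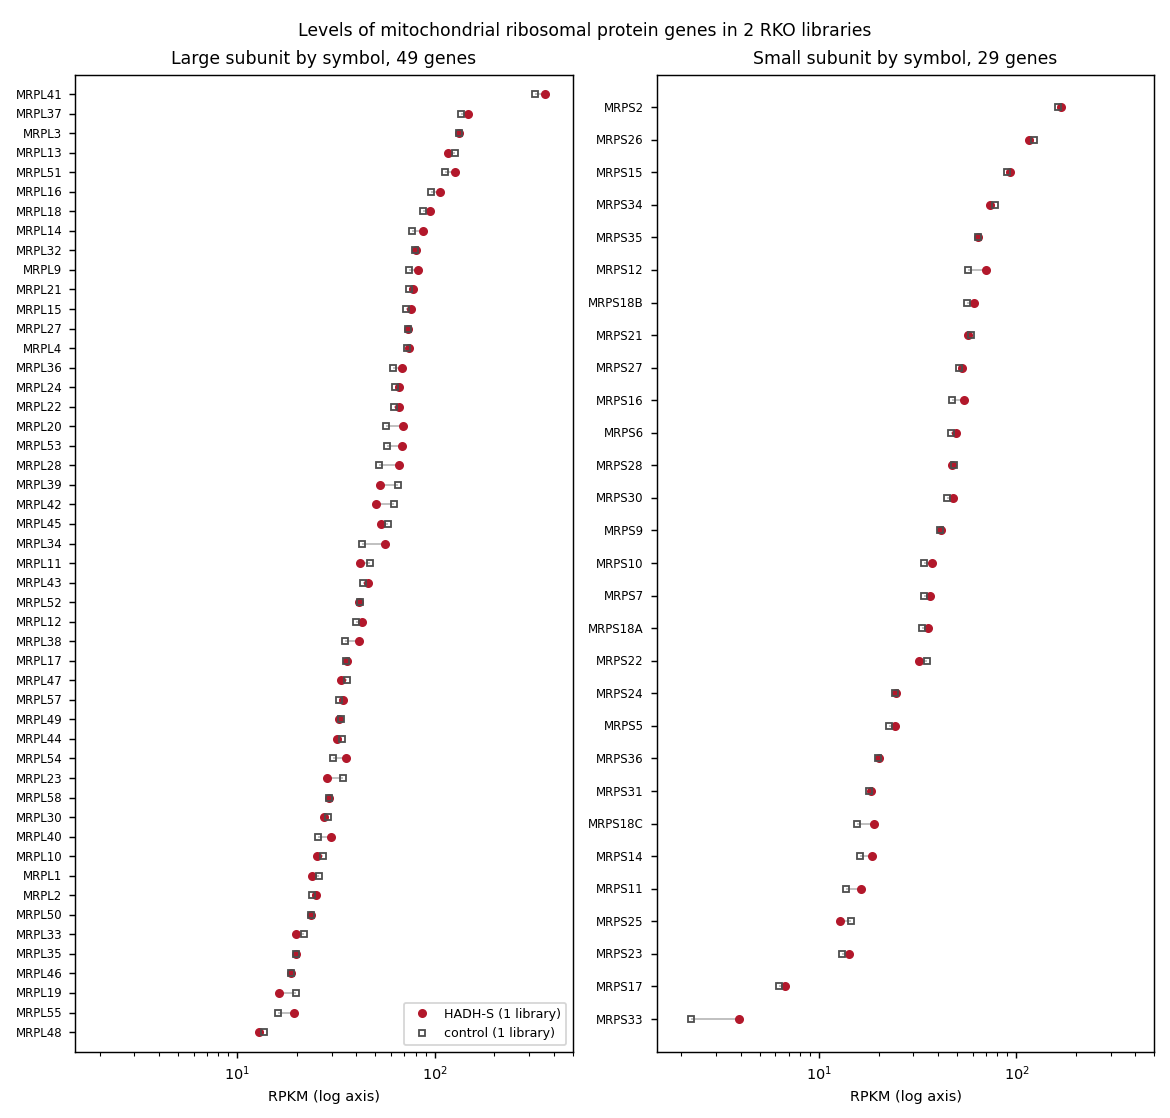
RPKM of each of the 49 large-subunit genes (left) and 29 small-subunit genes (right), ordered by mean level on a log axis, with the HADH-S library as filled circles and the control library as open squares, 1 library each. MRPL41 was highest at 363 RPKM with HADH-S and 322 in the control, MRPS33 was lowest at 3.92 with HADH-S and 2.24 in control, and for most genes the pair of symbols lies close together.

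MRPL41, a mitochondria-specific protein of the large subunit, was the most abundant member, with 363 RPKM in HADH-S cells and 322 in control cells. MRPL37, also specific to mitochondria, had 147 RPKM with HADH-S and 136 in control cells. MRPL3, the counterpart of bacterial L3, which reaches towards the peptidyl transferase centre, had 132 RPKM with HADH-S and 133 in control cells. These genes headed the large subunit in both libraries. Of the small subunit, MRPS2, the counterpart of bacterial S2, was the most abundant, with 169 RPKM in HADH-S cells and 162 in control cells. MRPS26 had 116 RPKM with HADH-S and 122 in control cells, and MRPS15 had 92.8 RPKM with HADH-S and 90.0 in control.

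Some of the members at the low end of the range were measured over long transcripts. MRPS33, a small mitochondria-specific protein, had 3.92 RPKM with HADH-S and 2.24 in control cells, on a transcript of 4210 nucleotides of which 318, or 7.55%, were coding. Per kilobase of coding length, on the same scale of library size, it stood at 51.9 with HADH-S and 29.7 in the control. MRPS17, the counterpart of bacterial S17, had 6.67 RPKM with HADH-S and 6.28 in control cells, and MRPS23 had 14.1 RPKM with HADH-S and 13.1 in control. In the large subunit the lowest by mean level were MRPL48 with 12.8 RPKM with HADH-S and 13.6 in control, MRPL55 with 19.4 RPKM with HADH-S and 16.1 in control, and MRPL19, on a transcript of 7825 nucleotides, with 16.3 RPKM with HADH-S and 19.7 in control. The coding part was under 20% of the named transcript for 12 of the 78 members. In the control the highest member exceeded the lowest by a factor of 144 in RPKM and by 20.7 per kilobase of coding length. Which transcript the reads were spread over was the authors' choice, so levels of members with long untranslated parts depend on it. In a ratio of RPKM between the libraries the transcript length cancels, for the reads as counted. The logarithmic differences given below add a constant to each RPKM, so they still depend on that length. Whether the chosen transcript also decided which reads were counted is not known, because the submitters' processing notes name no counter.

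Large-subunit genes had somewhat higher levels than small-subunit genes in both libraries. The median large-subunit gene stood at 45.6 RPKM with HADH-S and 43.3 in control cells, and the median small-subunit gene at 37.3 with HADH-S and 35.1 in the control. Large over small was thus 1.22 with HADH-S and 1.23 in control cells, and per kilobase of coding length, an alternative chosen after the data had been seen, 1.18 with HADH-S and 1.303 in control. Transcripts of the large subunit were shorter, with a median of 1175 nucleotides against 1547 for the small subunit. The size of the ratio depended on the measure. Geometric means gave 1.41 with HADH-S and 1.47 in control. Members with a bacterial counterpart alone gave 1.67 with HADH-S and 1.46 in control. Lower ratios came with subunits as in ribosome structures, described further on, at 1.16 with HADH-S and 1.14 in control. With a mean of at least 20 RPKM, a minimum added after the data had been seen, they were 1.04 with HADH-S and 1.15 in control.

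Between the libraries, differences of the members were small. As log2 differences, HADH-S over control with a pseudocount of 1 added to each RPKM, values ran from -0.30 for MRPL42 to 0.60 for MRPS33, and 0 of 78 members reached a 2-fold difference in either direction, where 0.3% of all 10331 genes were higher and 0.0484% lower by that much. At 1.5-fold 1 member was higher, MRPS33, and 0 were lower, beside 1.47% and 0.436% of all genes. At a log2 difference of 0.32, 2 were higher, MRPS33 and MRPL34, and 0 were lower, beside 7.98% and 3.65% of all genes. The central 95% of all genes, from -0.36 to 0.49, held 77 of the 78 members.

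More members lay slightly above the control than below it. A value above 0 was seen in 51 of 78 members, 29 of 49 in the large and 22 of 29 in the small subunit, beside 52.2% of all genes. This count was 44 with both libraries set to equal RPKM totals and 40 after removal of the trend with transcript length that is described further on. The counting interval of the ratio lay above 1 for 14 members and below 1 for 3, beside 13.8% and 11.6% of all genes. Members are better covered than most genes. Among the 3566 genes with a mean of at least 20 RPKM the shares were 18.3% above and 15.4% below, a minimum added after the data had been seen. Of the 64 members at that level, 12 lay above 1 and 2 below. By subunit over all 78 members, 10 of 49 large-subunit genes lay above 1 and 3 below. Of the 29 small-subunit genes 4 lay above and 0 below. The split of intervals depended on scaling: with equal RPKM totals, 9 members lay above 1 and 6 below, and with equal 75th percentiles 9 lay above and 5 below. Across members, ratios deviated from 1 by 1.64 times their counting error in root mean square, beside 1.91 times across all genes.

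**Figure D2:**
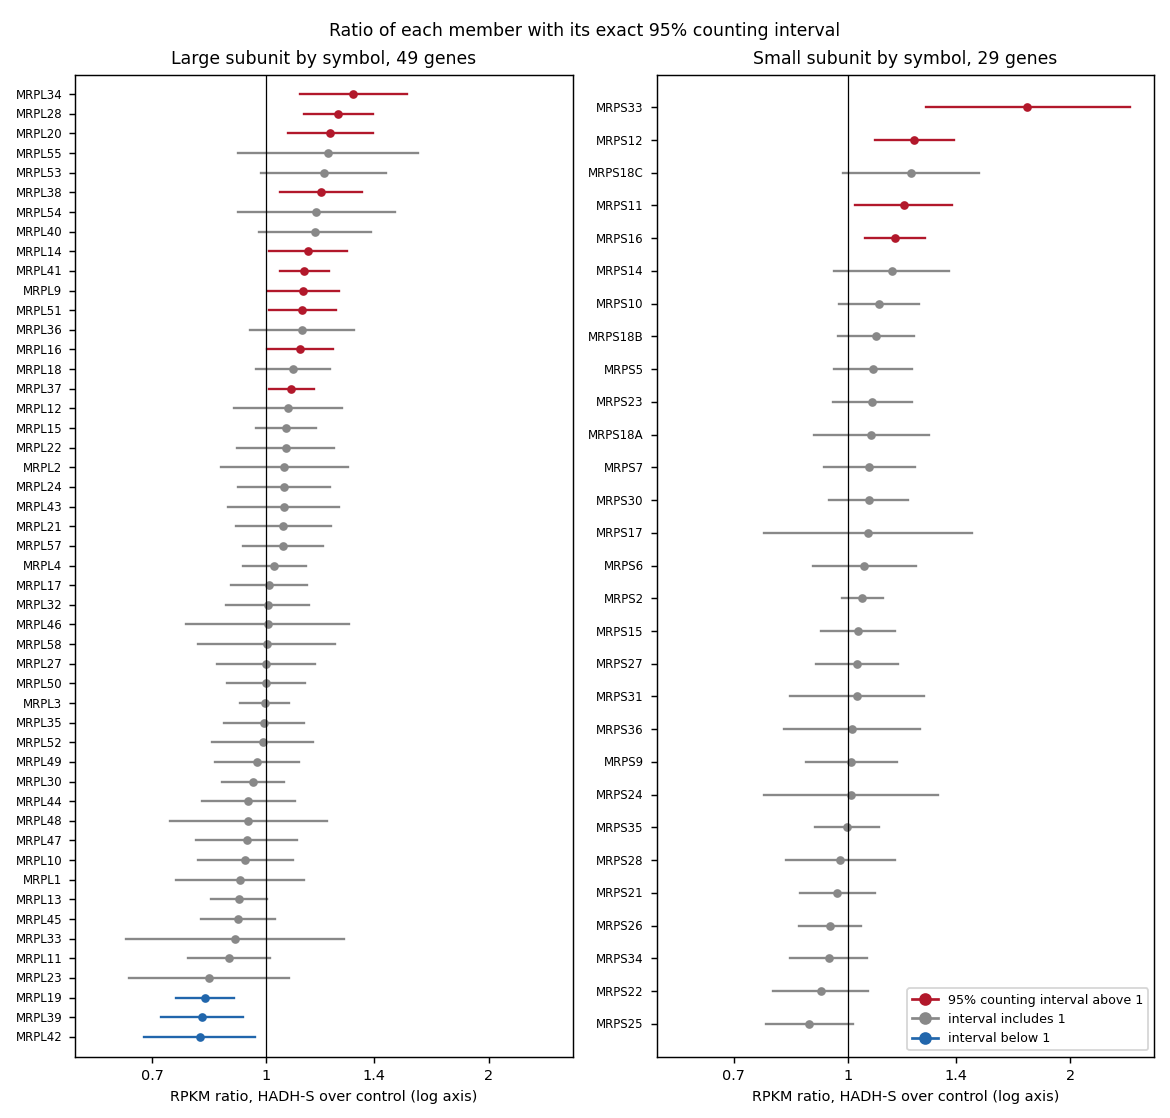
Ratio of RPKM with HADH-S over control for each large-subunit gene (left) and small-subunit gene (right), on a log axis, with exact 95% counting intervals as bars and the line at a ratio of 1. Red marks the 14 genes whose interval lies above 1 and blue the 3 below it, and MRPS33 stands furthest out at 1.75.

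The summed reads of both subunits were slightly above the control as scaled by the authors. The 49 large-subunit genes had a median log2 difference of 0.03 and took 0.360% of the HADH-S reads and 0.350% of the control reads, a ratio of 1.03 with an interval of 1.01 to 1.05. That interval included 1 with equal RPKM totals (ratio 1.01, 0.993 to 1.03) and with equal 75th percentiles (ratio 1.02, 0.9994 to 1.04). The 29 small-subunit genes had a median of 0.07 and took 0.203% of the HADH-S reads and 0.194% of the control reads, a ratio of 1.05 with an interval of 1.02 to 1.07, and with equal RPKM totals 1.03 (1.01 to 1.05). The median of all genes was 0.01. Large minus small was -0.04 in the medians, and the SD among genes was 0.16 in the large and 0.15 in the small subunit. Some symbols do not match the place of the protein: MRPS30 and MRPS18A sit in the large subunit in ribosome structures, and MRPS36 was found to be a component of the oxoglutarate dehydrogenase complex. With MRPS30 and MRPS18A moved and MRPS36 left out, the difference of medians was 0.01. With a mean of at least 20 RPKM, the minimum added after the data had been seen, it was 0.02, so its sign was not stable. Those proteins were themselves nearly level, MRPS30 at 47.6 RPKM with HADH-S and 44.6 in the control, MRPS18A at 35.6 with HADH-S and 33.1 in control, and MRPS36 at 19.98 with HADH-S and 19.8 in control.

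MRPS33 differed most. It had 115 reads with HADH-S and 64 in control cells, 3.92 RPKM with HADH-S and 2.24 in control, a ratio of 1.75 with an interval of 1.28 to 2.41. The gene (ENSG00000090263) lies at chr7:141002610-141014952 in GRCh38.p14, and RefSeq lists 4 pseudogenes under its name, so part of its reads may be shared with copies. Without it, the remaining 28 small-subunit genes had a median of 0.07 and reached at most 0.29.

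Several proteins of bacterial descent followed. MRPL34, the counterpart of bacterial L34 (chr19:17292573-17306843), had 56.1 RPKM with HADH-S and 42.8 in control cells, a ratio of 1.31 (1.11 to 1.55), and its span overlaps the coding gene ABHD8. MRPL28, the counterpart of bacterial L28 (chr16:366969-370538), had 65.5 RPKM with HADH-S and 52.4 in the control, a ratio of 1.2504 (1.12 to 1.39). MRPS12, the counterpart of bacterial S12 at the decoding site (chr19:38930944-38933168), had 70.0 RPKM with HADH-S and 57.0 in the control, a ratio of 1.23 (1.09 to 1.39). In bacteria, S12 contacts the codon and anticodon during decoding. MRPL20, whose bacterial counterpart is needed early in assembly of the large subunit (chr1:1401909-1407293), had 69.4 RPKM with HADH-S and 56.9 in the control, a ratio of 1.22 (1.07 to 1.39). MRPS11, of the platform of the small subunit, had 16.3 RPKM with HADH-S and 13.7 in the control (ratio 1.19, 1.02 to 1.38), and MRPS16, the counterpart of bacterial S16, had 54.5 RPKM with HADH-S and 47.1 in control (ratio 1.16, 1.05 to 1.27). The other members with an interval above 1 had ratios from 1.08 for MRPL37 to 1.19 for MRPL38. MRPL41 was at 1.13 (1.04 to 1.21). MRPL14 (ratio 1.14, 1.007 to 1.28), MRPL9 (1.12, 1.006 to 1.253), MRPL51 (1.12, 1.009 to 1.24), MRPL16 (1.11, 1.0006 to 1.23) and MRPL37 (1.08, 1.006 to 1.16) had lower bounds next to 1. Their intervals included 1 with equal RPKM totals and with equal 75th percentiles. The bacterial counterpart of MRPL16 lies near the A-site transfer RNA. The annotated spans of 18 members overlap another coding gene, among them MRPL14 (TMEM63B), MRPL9 (OAZ3) and MRPL37 (SSBP3), so with a strand setting that is not stated their counts are uncertain.

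Lower with HADH-S by the same measure were MRPL42, MRPL39 and MRPL19. MRPL42, a mitochondria-specific protein (chr12:93467514-93516214), had 50.6 RPKM with HADH-S and 62.3 in control cells, from 247 reads with HADH-S and 296 in control, a ratio of 0.812 (0.683 to 0.964). RefSeq lists 6 pseudogenes of it. MRPL39, mitochondria-specific (chr21:25585656-25607859), had 52.9 RPKM with HADH-S and 64.8 in the control, a ratio of 0.817 (0.719 to 0.929). MRPL19, the counterpart of bacterial L19 at the interface of the subunits (chr2:75646783-75662206), was the best covered of the 3, with 16.3 RPKM from 888 reads in HADH-S cells and 19.7 RPKM from 1046 reads in control cells, and had a ratio of 0.826 (0.754 to 0.904). All 3 belong to the large subunit, and with a 99% interval 2 members lay below 1. With equal RPKM totals, MRPL11 (0.769 to 0.993), MRPL13 (0.828 to 0.984) and the small-subunit MRPS25 (0.760 to 0.998) also had intervals below 1. With equal 75th percentiles MRPL11 and MRPL13 did, and MRPS25 did not.

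Other members at the ends of the order had intervals that included 1 as scaled by the authors. Of the large subunit, MRPL55 had 19.4 RPKM with HADH-S and 16.1 in the control (ratio 1.21, 0.915 to 1.61) and MRPL53 68.3 with HADH-S and 57.1 in control (ratio 1.20, 0.984 to 1.45). MRPL23, at the mouth of the exit tunnel, had 28.6 RPKM with HADH-S and 34.2 in control (ratio 0.836, 0.651 to 1.07), and MRPL11 had 41.9 RPKM with HADH-S and 47.1 in control (ratio 0.889, 0.783 to 1.01). At the lower end of the small subunit were MRPS25 (12.8 RPKM with HADH-S, 14.5 in the control), MRPS22 (32.2 with HADH-S and 35.1 in control), MRPS34 (73.3 with HADH-S and 77.9 in control), MRPS26, given above, and MRPS21 (56.8 with HADH-S and 58.8 in control), with log2 values from -0.16 to -0.05. RefSeq lists 9 pseudogenes of MRPS21, the most of any member, and 106 in all for 42 of the 78 members.

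Proteins of the stalk lay on both sides of 1. The stalk of the large subunit recruits the translation GTPases, and MRPL12 is its repeated protein, which has also been reported to bind the mitochondrial RNA polymerase. MRPL12 had 42.7 RPKM with HADH-S and 39.9 in the control (ratio 1.07, 0.904 to 1.26). Among the other stalk proteins, MRPL53 and MRPL54 lay above 1 (MRPL54 at 35.4 RPKM with HADH-S and 30.4 in control) and MRPL10 (25.3 RPKM with HADH-S and 27.1 in control) and MRPL11 below. All 5 intervals included 1 as scaled by the authors, and the sum of reads over the 5 had a ratio of 0.998 (0.928 to 1.07).

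At the polypeptide exit, where the new chain meets the membrane, more members lay below 0 than above it. Of the 8 members 3 were above 0, beside 52.2% of all genes. The summed reads of all 8 had a ratio of 0.949 (0.903 to 0.997). MRPL45, which tethers the ribosome to the inner membrane, had 53.2 RPKM with HADH-S and 58.1 in the control (ratio 0.915, 0.815 to 1.03). MRPL44, which carries a ribonuclease III fold, had 32.0 RPKM with HADH-S and 33.8 in control, and MRPL47 33.6 RPKM with HADH-S and 35.8 in control. MRPL17 was at 35.8 RPKM with HADH-S and 35.5 in the control, MRPL22 at 65.8 with HADH-S and 62.0 in control, and MRPL24 at 66.2 with HADH-S and 62.7 in control. Among these 8 only MRPL39 had an interval that excluded 1. It accounted for 442 of the 3173 reads summed for HADH-S cells and for 526 of the 3253 summed for control cells. The sum without MRPL39 was not tested, so a ratio below 1 is not shown for the other members as a group.

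The central protuberance of the large subunit, which faces the transfer RNAs, was assigned 6 members. Of these 5 were above 0, beside 52.2% of all genes, and 3 with equal RPKM totals. The ratio of their summed reads was 1.10 (1.03 to 1.17), and 1.08 (1.01 to 1.15) with equal totals. MRPL38 had 41.5 RPKM with HADH-S and 35.0 in the control (ratio 1.19, 1.04 to 1.35), and MRPL40 29.7 RPKM with HADH-S and 25.5 in control (ratio 1.16, 0.976 to 1.39). MRPL18, the counterpart of the bacterial protein that binds 5S ribosomal RNA, had 94.5 RPKM with HADH-S and 86.9 in control. MRPL58, a peptidyl-tRNA hydrolase built into the ribosome, was level at 29.2 RPKM in each library, as was MRPL46 at 18.8 with HADH-S and 18.7 in control, and MRPL48 stood at 12.8 RPKM with HADH-S and 13.6 in control. In the small subunit, the 3 members assigned to the mRNA channel and decoding site had a ratio of summed reads of 1.14 (1.05 to 1.23). Of these 3 members MRPS12 alone had an interval that excluded 1. MRPS5 was at 24.3 RPKM with HADH-S and 22.5 in control cells and MRPS24 at 24.5 with HADH-S and 24.3 in control. PTCD3, at the mRNA entrance, has another kind of symbol and is not in this sum. It was lower with HADH-S, as given further on.

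The 3 relatives of bacterial S18, of which a mitochondrial ribosome holds all at different places, were each above 0. MRPS18B was the most abundant with 60.9 RPKM with HADH-S and 55.9 in the control (ratio 1.09, 0.968 to 1.23). MRPS18A had a ratio of 1.07 (0.899 to 1.29). MRPS18C, the one in the place of bacterial S18, had 18.99 RPKM with HADH-S and 15.6 in the control (ratio 1.22, 0.985 to 1.502), and its span overlaps ABRAXAS1. All 3 intervals included 1, while their summed reads had a ratio of 1.11 (1.01 to 1.21), and with equal RPKM totals 1.09 (0.997 to 1.19).

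By descent, 34 of the 48 members with a bacterial counterpart were above 0, with a median log2 difference of 0.08, and 17 of the 30 mitochondria-specific ones, with a median of 0.01. In the small subunit the counts were 16 of 18 and 6 of 11, and in the large subunit 18 of 30 and 11 of 19, beside 52.2% of all genes. With equal RPKM totals the small-subunit counts were 14 of 18 and 5 of 11. The summed reads of the conserved small-subunit genes had a ratio of 1.08 (1.05 to 1.11) and those of the mitochondria-specific ones 0.995 (0.957 to 1.03). With equal RPKM totals these ratios were 1.06 (1.03 to 1.09) and 0.978 (0.940 to 1.02). In the large subunit the order of the sums was turned round, at 1.02 (1.00 to 1.05) for conserved and 1.04 (1.01 to 1.07) for mitochondria-specific genes, and both intervals included 1 with equal RPKM totals.

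**Figure D3:**
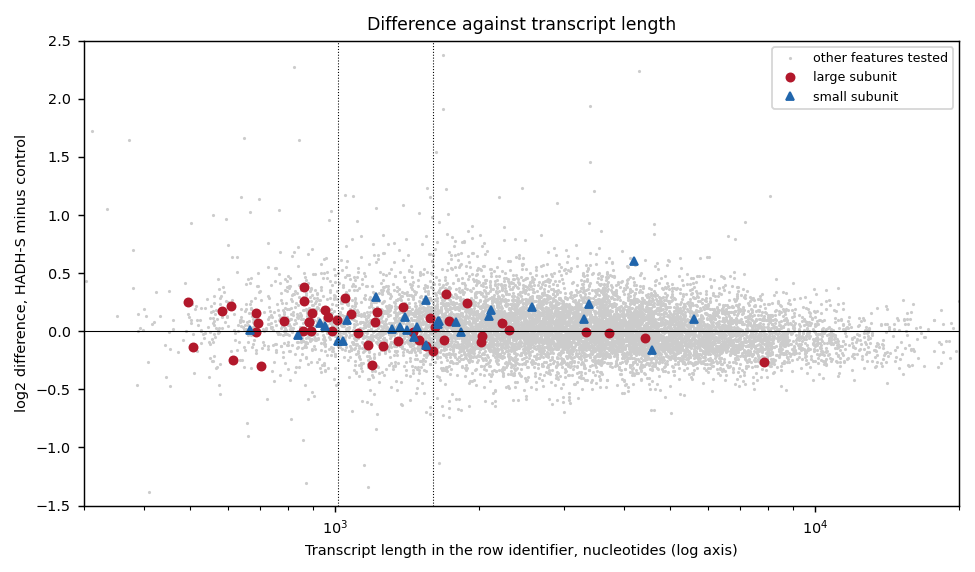
Log2 difference (HADH-S minus control, pseudocount 1) against transcript length on a log axis for all genes tested (grey) and for the large-subunit (red circles) and small-subunit members (blue triangles); the dotted lines at 1016 and 1605 nucleotides part the members into 3 classes of 26. Members lie within the cloud of other genes, which is centred above 0 at the left and near 0 at the right.

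Transcript length moved with the differences across all genes, and members are short. Genes of up to 1016 nucleotides had a median log2 difference of 0.06, those between this and 1605 nucleotides 0.05, and longer ones 0.00. The members in these classes had medians of 0.08, 0.01 and 0.07. Spearman's rho of the difference with length was -0.19 across all genes and -0.05 across the 78 members, both across genes within 1 pair of libraries. After removal of a linear trend with log2 length the median was -0.0014 for the large subunit and 0.03 for the small. The part of length in the small positive medians was not tested.

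Sequence shared by the promoters was examined next, since members were chosen by symbol alone. RefSeq promoters of GRCh38.p14, from 250 bases before to 50 after each listed start, were found for 69 of the 78 members. They were searched on both strands for 4 motifs. The ETS-type motif CCGGAAG, bound by factors such as GABP (also called NRF-2), was present in 30 of the 69 members, or 43.5%, beside 25.1% of 8423 tested genes and 10.3% of all promoters. The YY1-type motif AAGATGGC was present in 21 members, 30.4%, beside 7.23% of tested genes and 2.89% of all promoters. The NRF1-type motif, GCGC and TGCGC with any 1 base between them, was present in 9, 13.0%, beside 14.8% and 5.78%, and the TATA-type motif TATAAA in 3, 4.35%, beside 7.41% and 11.5%. No match of one motif overlapped a match of another in these promoters, 8 members held both the ETS and the YY1 type, and 48 held at least 1 of the first 3 types. A match is a description of the letters and not of binding. YY1 itself had 15.6 RPKM with HADH-S and 17.0 in control cells, and NRF1 had 7.77 with HADH-S and 6.70 in control. Of the GABP subunits, GABPA had 11.8 RPKM with HADH-S and 13.1 in control and GABPB1 20.9 with HADH-S and 19.8 in control. All 4 intervals included 1, and these genes were named for the motifs after their values were seen.

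**Figure D4:**
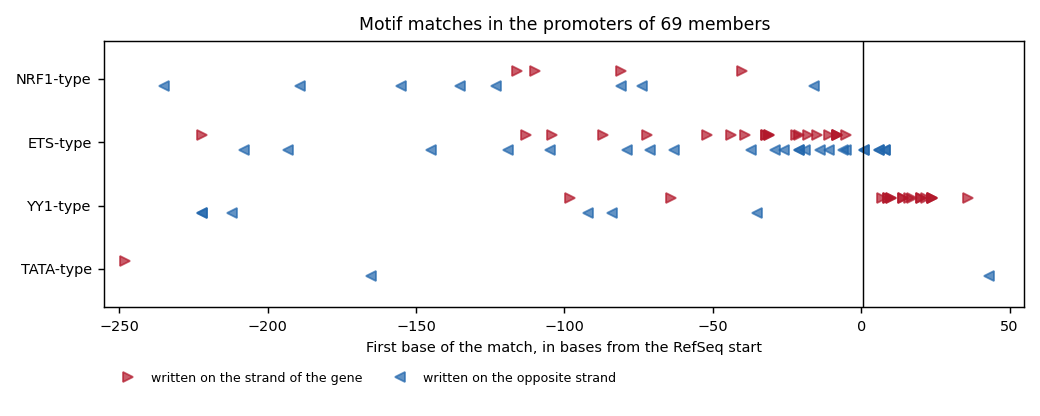
Position of each motif match in the promoters of the 69 members, in bases from the RefSeq start (vertical line), with matches written on the strand of the gene as red triangles pointing right and those on the opposite strand as blue triangles pointing left. In 16 of 21 members a YY1-type match begins 7 to 36 bases after the start, on the strand of the gene, while the others lie before it, and ETS-type matches lie mostly just before the start.

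Of the 21 members with a YY1-type match, most had it just after the start. In 16 members a match began 7 to 36 bases after the start and on the strand of the gene, beside 4.18% of tested genes. The motif contains ATG, and in 9 members this ATG was the first codon of the coding sequence in the deposited row. ETS-type matches began between 60 bases before and 15 after the start in 25 members, beside 15.1% of tested genes. These windows were chosen after the positions had been seen. The following 30-base stretches, printed because they show the same letters shortly after the start in members of both subunits, have the YY1-type motif in capitals and run 5′ to 3′ on the strand of the gene.
MRPL20 (chr1:1407260-1407289, minus strand): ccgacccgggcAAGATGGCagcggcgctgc
MRPL38 (chr17:75904860-75904889, minus strand): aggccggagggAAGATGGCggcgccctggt
MRPL42 (chr12:93467511-93467540, plus strand): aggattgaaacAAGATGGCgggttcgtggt
MRPL45 (chr17:38297170-38297199, plus strand): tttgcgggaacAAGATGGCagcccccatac
MRPL46 (chr15:88467362-88467391, minus strand): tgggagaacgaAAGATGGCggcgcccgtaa
MRPS7 (chr17:75261887-75261916, plus strand): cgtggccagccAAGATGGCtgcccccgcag
MRPS10 (chr6:42217834-42217863, minus strand): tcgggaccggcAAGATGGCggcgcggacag
MRPS18A (chr6:43687764-43687793, minus strand): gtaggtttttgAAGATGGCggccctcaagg
MRPS18B (chr6:30617852-30617881, plus strand): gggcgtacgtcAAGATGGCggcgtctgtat
MRPS30 (chr5:44808949-44808978, plus strand): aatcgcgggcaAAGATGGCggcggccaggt
These genes include MRPL20 and MRPL38, higher with HADH-S, and MRPL42, lower with HADH-S.

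The 60 bases before the start are printed for the members with the highest and lowest ratios whose intervals excluded 1, with complete matches of the ETS type (MRPS12, MRPL20) and the NRF1 type on the opposite strand (MRPL34) in capitals. Where several starts were listed, the one with the most complete matches in these 60 bases is shown.
MRPS33 (chr7:141014953-141015012, minus strand): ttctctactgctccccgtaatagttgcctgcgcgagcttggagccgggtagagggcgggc
MRPL34 (chr19:17305593-17305652, plus strand): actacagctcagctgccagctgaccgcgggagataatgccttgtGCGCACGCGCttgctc
MRPL28 (chr16:370539-370598, minus strand): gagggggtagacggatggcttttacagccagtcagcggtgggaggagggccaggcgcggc
MRPS12 (chr19:38930894-38930953, plus strand): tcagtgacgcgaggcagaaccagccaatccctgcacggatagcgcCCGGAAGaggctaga
MRPL20 (chr1:1407294-1407353, minus strand): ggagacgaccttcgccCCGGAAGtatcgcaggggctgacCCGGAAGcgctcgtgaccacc
MRPL42 (chr12:93467454-93467513, plus strand): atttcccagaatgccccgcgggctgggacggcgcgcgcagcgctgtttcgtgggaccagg
MRPL39 (chr21:25607482-25607541, minus strand): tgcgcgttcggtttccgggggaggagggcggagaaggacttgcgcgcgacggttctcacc
MRPL19 (chr2:75646723-75646782, plus strand): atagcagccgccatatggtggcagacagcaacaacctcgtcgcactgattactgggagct
In MRPS33, MRPL28 and MRPS16 an ETS-type match on the opposite strand begins at or just after the start.
MRPS33 (chr7:141014934-141014963, minus strand): agagggcgggcCTTCCGGgacgagggcgcg
MRPL28 (chr16:370513-370542, minus strand): cggcagatcggCTTCCGGttccggtgggct
MRPS16 (chr10:73252621-73252650, minus strand): cggatcatccgCTTCCGGagtcgaggtttt
Members with an ETS-type match had a median log2 difference of 0.10 and those without one 0.06, and for the YY1 type the medians were 0.08 and 0.07.

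Genes that work with the mitochondrial ribosome were described from lists of symbols. Ribosomal proteins named otherwise had a median log2 difference of -0.02, with 2 of 5 above 0. PTCD3, a pentatricopeptide protein at the mRNA entrance, had 21.1 RPKM with HADH-S and 24.2 in the control (ratio 0.873, 0.800 to 0.953). GADD45GIP1, of the large subunit, had 60.2 RPKM with HADH-S and 56.2 in control, AURKAIP1 112 with HADH-S and 106 in control, and CHCHD1 56.1 with HADH-S and 58.0 in control. Of 26 assembly factors, 12 were above 0 with a median of -0.01, 3 intervals lay above 1 and 4 below, beside 13.8% and 11.6% of all genes. The assembly GTPase MTG2 had 16.8 RPKM with HADH-S and 12.2 in the control (ratio 1.38, 1.17 to 1.63), and the ribosomal RNA methyltransferase MRM1 5.47 RPKM with HADH-S and 3.69 in control (ratio 1.48, 1.01 to 2.20). MALSU1, which holds the immature large subunit apart from the small, had 15.1 RPKM with HADH-S and 18.7 in control (ratio 0.809, 0.693 to 0.944), and the pseudouridine synthase-like RPUSD3 21.2 RPKM with HADH-S and 26.3 in control (ratio 0.808, 0.659 to 0.988).

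Translation factors, transfer RNA synthetases and the transcription machinery of mitochondria had medians of -0.02 over 16 genes, 0.00 over 20 and -0.06 over 13. In the same order, 2, 0 and 3 intervals lay above 1 and 1, 1 and 0 below, beside 13.8% and 11.6% of all genes. The elongation factor TSFM had 59.3 RPKM with HADH-S and 49.7 in the control (ratio 1.19, 1.05 to 1.36), and MTRF1, a release factor relative, 4.41 with HADH-S and 3.38 in control (ratio 1.303, 0.890 to 1.92). The recycling factor MRRF had 10.1 RPKM with HADH-S and 12.1 in control (ratio 0.831, 0.748 to 0.922), and GFM2, which acts with it, 24.9 with HADH-S and 28.0 in control (ratio 0.892, 0.791 to 1.01). These factors thus differed in both directions. IARS2, the isoleucyl synthetase, was the only one of 20 synthetases with an interval that excluded 1, at 59.2 RPKM with HADH-S and 66.5 in the control (ratio 0.890, 0.828 to 0.956). PARS2 had 4.45 RPKM with HADH-S and 6.02 in control, AARS2 6.55 with HADH-S and 5.45 in control, and FARS2 11.97 with HADH-S and 9.77 in control. POLRMT, the mitochondrial RNA polymerase, had 32.2 RPKM with HADH-S and 27.4 in the control (ratio 1.17, 1.06 to 1.2997), and the exoribonuclease PNPT1, which is also an interferon-stimulated gene, 34.0 with HADH-S and 30.0 in control (ratio 1.13, 1.04 to 1.24). The RNase P subunit PRORP stood at 8.89 RPKM with HADH-S and 10.2 in control and the elongation factor TEFM at 23.6 with HADH-S and 25.8 in control.

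The messenger RNAs that the mitochondrial ribosome translates had ratios from 0.995 to 1.08. Of 13 mitochondrially encoded messenger RNAs 7 were analysed here, with a median log2 difference of 0.07, which was -0.045 after removal of the length trend. With equal RPKM totals that median was 0.047. For 5 of the 7 the interval lay above 1 and for 0 below as scaled by the authors, beside 13.8% and 11.6% of all genes. MT-ATP8 had 12523 RPKM with HADH-S and 11597 in the control (ratio 1.08, 1.06 to 1.10), MT-CO2 8793 with HADH-S and 8222 in control (ratio 1.07, 1.05 to 1.08), MT-CO1 16892 with HADH-S and 16952 in control, and MT-ND4L 6148 with HADH-S and 6180 in control. The other intervals above 1 were those of MT-ATP6 (ratio 1.01), MT-ND5 (1.05) and MT-ND6 (1.07). Each of the 7 had at least 8350 reads in both libraries, so their intervals are narrow and exclude 1 at small differences. The 75 nuclear-encoded subunits of oxidative phosphorylation, which assemble with these products, had a median of 0.05, with 49 above 0, 15 intervals above 1 and 4 below, beside 13.8% and 11.6% of all genes. This median was -0.0089 after removal of the length trend. ATP5ME of the ATP synthase had 183 RPKM with HADH-S and 135 in the control (ratio 1.36, 1.16 to 1.59), NDUFS7 of complex I 48.3 with HADH-S and 36.5 in control (ratio 1.32, 1.10 to 1.59), NDUFS4 39.1 with HADH-S and 49.0 in control (ratio 0.797, 0.652 to 0.974) and NDUFA13 5.73 with HADH-S and 7.18 in control (ratio 0.799, 0.440 to 1.44).

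**Figure D5:**
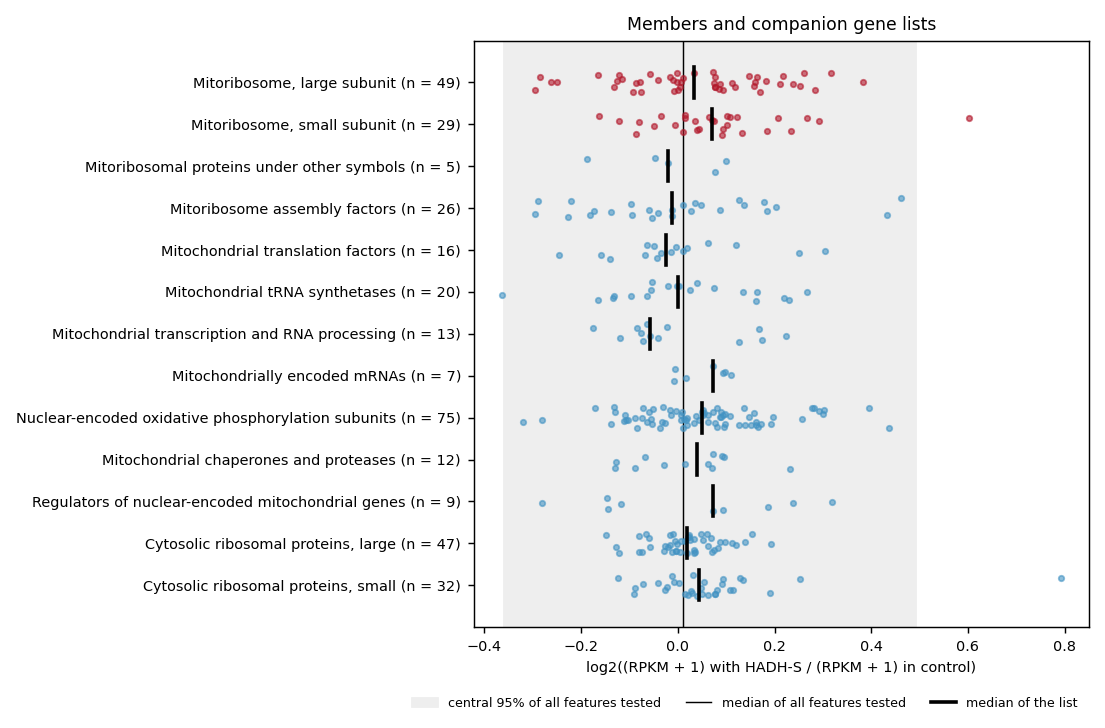
Log2 difference (HADH-S over control, pseudocount 1) of each gene in the 2 subunits (red) and in 11 companion lists (blue), with list medians as thick black marks; the grey band is the central 95% of all 10331 genes and the thin line their median of 0.01. List medians lie between -0.06 and 0.07, and MRPS33, the cytosolic RPS10 and, just below it, PARS2 stand outside the band.

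Chaperones and proteases of the mitochondrial matrix and inner membrane had a median of 0.04 over 12 genes. Of their intervals 0 lay above 1 and 2 below, beside 13.8% and 11.6% of all genes. Their summed reads lay on the other side of the control, with a ratio of 0.981 (0.967 to 0.996). HTRA2 had 12.5 RPKM with HADH-S and 10.5 in the control, GRPEL1 55.4 with HADH-S and 51.8 in control, and SPG7, a subunit of the m-AAA protease, 12.5 with HADH-S and 13.7 in control, while YME1L1 had 53.9 with HADH-S and 59.1 in control (ratio 0.912, 0.849 to 0.979). MRPL32, which the m-AAA protease is known to mature and which was chosen for this after its values were seen, was level at 79.9 RPKM with HADH-S and 79.6 in the control. Among 9 measured regulators of nuclear-encoded mitochondrial genes the median was 0.07, with 3 intervals above 1 and 2 below, beside 13.8% and 11.6% of all genes. Their mean was 0.02, and without the minimum level, which adds PPARGC1A, the median was 0.0041. The nuclear receptor ESRRA had 38.6 RPKM with HADH-S and 30.7 in the control (ratio 1.26, 1.11 to 1.42) and the coactivator PPRC1 14.4 with HADH-S and 12.1 in control (ratio 1.19, 1.05 to 1.36). PPARGC1B, a coactivator of the same family, had 1.60 RPKM with HADH-S and 2.17 in control (ratio 0.740, 0.578 to 0.947), and SP1 13.5 with HADH-S and 15.1 in control (ratio 0.897, 0.810 to 0.994).

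The cytosolic ribosome had medians close to those of the mitochondrial one. Its 47 large-subunit genes had a median log2 difference of 0.02 and its 32 small-subunit genes 0.04. RPL28 had 1421 RPKM with HADH-S and 1243 in the control, RPL36 387 with HADH-S and 347 in control, RPL6 1936 with HADH-S and 2115 in control, and RPL36A 24.9 with HADH-S and 27.7 in control. In the small subunit RPS28 had 440.2 RPKM with HADH-S and 369 in control, RPS3A 1624 with HADH-S and 1730 in control, and RPS7 885 with HADH-S and 964 in control. RPS10 was the furthest at 2.55 RPKM with HADH-S and 1.05 in control, from 25 reads with HADH-S and 10 in control (ratio 2.43, 1.13 to 5.67). Cytosolic ribosomal protein genes have many processed pseudogenes, so their counts are uncertain, and after removal of the length trend the large and small medians were -0.05 and -0.03.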

How the data were processed

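RNA from 2 RKO libraries was used, 1 per condition. The authors deposited 1 RPKM value per gene and library, per the file headers. Per the submitters' processing notes, shared by all samples, the tools include fastp 0.23.2 and SAMtools 1.9 and the build is GRCh38; no RNA aligner, counter or strand setting is named there. RPKM times transcript length was a whole multiple of 1 step per library for 100% of values (tolerance 0.01 reads), which gave the reads. Differences are log2((RPKM + 1) with HADH-S / (RPKM + 1) in control) where the mean RPKM was 1 or more; intervals are exact at 95%. The protocol names no molecular identifiers, so reads need not be independent molecules. Scripts were tested on simulated data. Members, lists and naming rules were chosen with earlier results of these data known. Named were HADH, the 5 members with the highest and the 5 with the lowest difference and the 3 at each end of the levels per subunit, members with an interval that excluded 1, structural groups, and the 2 at each end of each list. A gene listed in 1 table was given 0 reads in the other. Alternatives covered pseudocounts, scaling, filters, subunit assignment, interval level and length. Python 3.11.15, pandas 2.3.3, SciPy 1.17.1 and RefSeq tables of GRCh38.p14 were used.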

Additional observations from a re-analysis of the deposited data

How the results depend on the processing

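No paired analysis was possible because each condition had 1 library, and for the same reason no library could be left out. The log2 difference of HADH lay between 0.91 and 1.03. The count of members with an interval above 1, 14 as reported, was 9 with equal RPKM totals, 9 with equal 75th percentiles, 9 with mitochondria-specific proteins left out and 8 with 99% intervals. The count below 1, 3 as reported, was 6, 5 and 1 under the first 3 of these settings. Leaving out mitochondria-specific proteins kept 48 of the 78 members, so its counts of 9 and 1 are over fewer genes. Both are among the values that moved past their tolerance, given below. Members higher by size, 0 at 2-fold, numbered 1 at 1.5-fold and 2 at a log2 difference of 0.32. The summed read ratio of the small subunit was 1.08 with mitochondria-specific proteins left out, against 1.05 as reported. The regulator median, 0.07 as reported, was 0.0041 without the minimum level. The median of the cytosolic large-subunit genes was -0.0059 with equal totals, and without the length trend it was -0.050, that of the small-subunit genes -0.031, of mitochondrially encoded mRNAs -0.045 and of nuclear-encoded oxidative phosphorylation subunits -0.0089; the cause was not tested. Of 286 values of these results under alternatives 15 moved past their tolerance. Of 843 values of single members 0 did. The tolerance of a single member came from its own counting interval, which is wide for members with few reads. Filters leave the value of a kept member unchanged, so this count says little about stability. Large minus small in median log2 difference, -0.04 as reported, lay between -0.04 and 0.02 over the settings run.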
